A study of Mus musculus with 65 samples.

Results

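HORMAD1 was mapped by chromatin immunoprecipitation and sequencing in mouse testes with and without IHO1, and the places where it lay were compared between the 2 genotypes. The wild-type list held 1715 HORMAD1 peaks and the list of the Iho1 knockout (Iho1KO) held 3149, which together were 4864 of the 97260 intervals in the 24 peak and hotspot lists of the series, of which 15 were used here. A wild-type peak and an Iho1KO peak that had at least 1 bp in common were called shared. This put the wild-type list into 851 shared peaks (49.6%, Wilson 95% interval 47.3 to 52.0) and 864 wild-type-only peaks, and the Iho1KO list into 854 shared peaks (27.1%) and 2295 Iho1KO-only peaks. The 2 shared numbers differ because a few peaks of each list overlapped more than 1 peak of the other. Few peaks lay close to the limit of this rule. The smallest overlap of a shared wild-type peak was 42 bp and the next 221 bp, and the closest wild-type-only peaks lay 349 and 372 bp from an Iho1KO peak, with 23 of the 864 within 1000 bp.

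Wild-type mice were C57BL/6JCrl, and the Iho1KO mice carried the Iho1tm1.2Atot allele on the strain given by the labels as C57BL/6JCrl. HORMAD1 lists of Prdm9KO (B6;129P2-Prdm9tm1Ymat/J), Spo11KO (Spo11tm1Mjn) and Mei4KO (Mei4tm1Bdm) mice were used beside them. All groups were male pups fed WIN 18,466, which the labels describe as a retinoic acid inhibitor, for 7 to 10 days from 1.5 days after birth. They then received a retinoic acid injection, and whole testes were taken 8 days later, when leptotene and zygotene spermatocytes made up 80 to 95% of the material. The lists come from whole testes, so other testicular cells contribute to them, and the knockouts lack their gene in every cell. The labels give 2 samples for each HORMAD1 group and 1 for SYCP3 in Iho1KO, but there was 1 list per group. No difference between genotypes therefore has a replicate check, and no p-value is given. Intervals take in only counting error, as if peaks were independent of each other.

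Meiotic recombination begins with DNA double-strand breaks made by SPO11 on chromosomes that are folded into loops along a protein axis. HORMAD1 is a HORMA-domain protein of that axis on unsynapsed chromosomes, and SYCP3 is another axis protein. IHO1 binds HORMAD1 and works with MEI4 and REC114, partner proteins that SPO11 needs for making breaks. PRDM9 is the DNA-binding histone methyltransferase that sets the sites of breaks in mice, called hotspots. DMC1 is a meiosis-specific recombinase that loads onto the resected DNA of breaks, and its deposited signal per hotspot ranked the hotspots. CTCF is an architectural DNA-binding protein that, with cohesin, marks the bases of many chromatin loops, and its deposited score ranked the CTCF peaks.

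Many HORMAD1 peaks of Iho1KO lay at CTCF peaks, and some of these covered a gene's start. Promoter sequences show what such sites look like. They are windows of 300 bp, from 250 bp before to 50 bp after a gene's start, taken from RefSeq annotation of GRCm38.p6 (mm10). By rule, the 3 windows at the highest CTCF scores were drawn from the shared class and 3 from the Iho1KO-only class. They were searched on both strands for the 12-letter CTCF core consensus. None of the 6 held it exactly, and 3 held it with 1 mismatch, a tolerance set after the exact search. These 3 and the window with the highest score of all, at Hjurp, are printed 5′ to 3′ on the gene's strand, with the match in capitals. The Gm33327 window (chr5:106802424-106802723, plus strand) lay in a shared peak of 2001 bp at a CTCF score of 9.28. The Ap5s1 window (chr2:131210110-131210409, plus strand) lay in an Iho1KO-only peak of 1498 bp at a score of 11.5. The Gm34323 window (chr9:120601620-120601919, plus strand) lay in an Iho1KO-only peak of 1810 bp at a score of 7.79. The Hjurp window (chr1:88277530-88277829, minus strand) lay in an Iho1KO-only peak of 1548 bp at a score of 18.7 and held no match.
Gm33327: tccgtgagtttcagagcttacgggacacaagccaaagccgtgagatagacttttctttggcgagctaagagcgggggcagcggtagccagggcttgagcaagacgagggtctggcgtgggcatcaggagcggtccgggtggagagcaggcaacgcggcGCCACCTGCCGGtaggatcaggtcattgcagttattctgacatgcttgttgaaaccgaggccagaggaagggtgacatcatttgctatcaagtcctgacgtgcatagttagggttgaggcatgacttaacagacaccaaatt
Ap5s1: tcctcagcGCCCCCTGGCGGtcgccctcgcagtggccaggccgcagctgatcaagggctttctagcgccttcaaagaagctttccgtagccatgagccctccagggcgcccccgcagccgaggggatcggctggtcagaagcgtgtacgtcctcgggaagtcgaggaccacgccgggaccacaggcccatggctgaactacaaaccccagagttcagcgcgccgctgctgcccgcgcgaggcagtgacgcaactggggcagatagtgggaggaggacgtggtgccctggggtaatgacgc
Gm34323: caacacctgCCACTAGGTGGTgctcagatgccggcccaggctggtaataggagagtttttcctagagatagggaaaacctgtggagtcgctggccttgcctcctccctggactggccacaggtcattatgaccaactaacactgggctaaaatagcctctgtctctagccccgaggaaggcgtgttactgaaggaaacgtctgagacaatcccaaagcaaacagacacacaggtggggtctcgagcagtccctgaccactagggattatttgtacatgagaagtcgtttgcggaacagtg
Hjurp: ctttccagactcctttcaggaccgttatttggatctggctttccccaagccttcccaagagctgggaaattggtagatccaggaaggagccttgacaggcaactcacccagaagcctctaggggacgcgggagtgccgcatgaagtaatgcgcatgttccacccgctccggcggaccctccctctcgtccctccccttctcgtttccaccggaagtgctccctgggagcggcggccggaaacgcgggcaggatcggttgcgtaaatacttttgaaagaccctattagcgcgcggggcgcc

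Over all 32851 promoter windows of the table, 4.33% held the core with at most 1 mismatch, and 10.9% of the 4270 windows at a CTCF peak did. Among windows at CTCF peaks that lay whole inside a HORMAD1 peak, 36 of 135 in the Iho1KO-only class (26.7%, 19.9 to 34.7), 9 of 55 in the shared wild-type class (16.4%, 8.86 to 28.3) and 2 of 19 in the wild-type-only class held it. Exact matches were rarer, at 8.89%, 7.27% and 0 of 19 windows (Wilson upper bound 16.8%), against 2.53% of all windows at CTCF peaks. The intervals of the first 2 classes overlapped in the search with 1 mismatch. Iho1KO-only windows that were not at a CTCF peak held the core in 8 of 125 cases (6.40%, 3.28 to 12.1).

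The 3 classes lay at different places in the genome. Most wild-type-only peaks lay at DMC1 hotspots: 568 at a hotspot without a CTCF peak and 41 at both, which was 70.5% of 864. Shared peaks lay mostly at CTCF peaks, with 531 of 851 at a CTCF peak away from hotspots and 67 at a hotspot without CTCF. The Iho1KO-only peaks, which had no wild-type counterpart, also lay mostly at CTCF peaks, with 1458 of 2295 at CTCF peaks away from hotspots and 64 at a hotspot without CTCF. At neither kind of site lay 161 wild-type-only, 221 shared and 730 Iho1KO-only peaks. The share at CTCF peaks was 66.2% in the shared class and 15.6% in the wild-type-only class, a difference of 50.5 percentage points (Newcombe 95% interval 46.4 to 54.4). Between the Iho1KO-only class (65.4%) and the shared Iho1KO peaks (66.5%) the difference was -1.11 points (-4.77 to 2.65), an interval that includes 0. Among peaks away from hotspots it was -4.16 points (-7.86 to -0.315), so there the Iho1KO-only class lay at CTCF slightly less often.

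**Figure D1:**
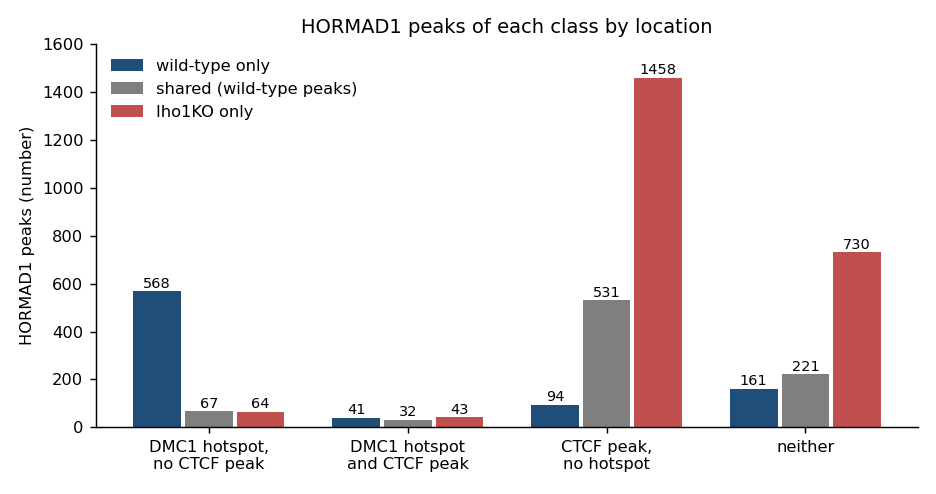
Number of HORMAD1 peaks (y axis) at each kind of site (x axis) for wild-type-only, shared and Iho1KO-only peaks, with the number above each bar. Wild-type-only peaks are most numerous at hotspots without CTCF (568), and Iho1KO-only peaks at CTCF peaks away from hotspots (1458).

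Whether a wild-type HORMAD1 peak was found again without IHO1 followed the kind of site. Of 635 peaks at a hotspot without CTCF, 67 were found in the Iho1KO list (10.6%, 8.39 to 13.2). Of 625 peaks at a CTCF peak away from hotspots, 531 were (85.0%, 81.9 to 87.5). Peaks at both lay between these, with 32 of 73 (43.8%, 33.0 to 55.2), and so did peaks at neither, with 221 of 382 (57.9%, 52.8 to 62.7). A CTCF peak went with a higher share on both backgrounds, by 33.3 points at hotspots (22.2 to 44.9) and by 27.1 points elsewhere (21.4 to 32.7). The second value was 42.4 points where the overlap had to cover 50% of the shorter interval. It was 14.1 points in the wider 50% of each list, where a peak could lose its partner to the cut.

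Wild-type HORMAD1 peaks with and without a wild-type IHO1 peak were found again at shares whose differences were not called. At CTCF peaks away from hotspots, 239 of 282 HORMAD1 peaks with IHO1 (84.8%) and 292 of 343 without IHO1 (85.1%) were in the Iho1KO list. The difference was -0.379 points (-6.13 to 5.20). At hotspots without CTCF the shares were 50 of 424 with IHO1 (11.8%) and 17 of 211 without (8.06%), a difference of 3.74 points (-1.50 to 8.26). At neither kind of site they were 113 of 192 with IHO1 (58.9%) and 108 of 190 without (56.8%). The whole shared class had fewer IHO1 peaks (49.1%) than the wild-type-only class (60.2%; difference -11.1 points, -15.7 to -6.36), but away from hotspots these shares were 46.8% and 47.8% and their difference of -1.03 points (-8.10 to 6.00) was not called.

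**Figure D2:**
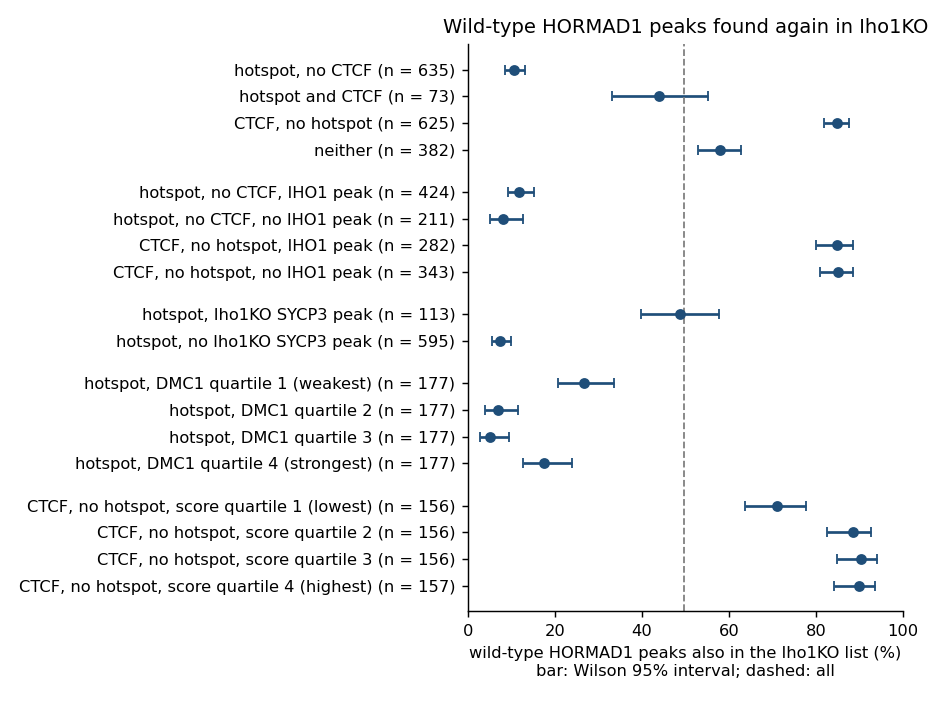
Share of wild-type HORMAD1 peaks that were also in the Iho1KO list (x axis, percent) for the subsets on the y axis, with points for shares and bars for Wilson 95% intervals. Subsets at CTCF peaks lie to the right of the dashed line of all wild-type peaks (49.6%), and subsets at hotspots lie to its left, apart from those that also had a CTCF peak or an Iho1KO SYCP3 peak, whose intervals include it.

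Strength of the hotspot, as its DMC1 value, did not order these shares. The 708 wild-type HORMAD1 peaks at hotspots were ranked by that value into 4 quartiles of 177. Of the weakest quartile (DMC1 values 21.5 to 2102.5) 47 peaks were found in Iho1KO (26.6%), and in the next quartiles 12 (6.78%) and 9 (5.08%). Of the strongest quartile (4872.5 to 20822.5) 31 were (17.5%), so the outer quartiles were both above the inner ones. The strongest quartile was below the weakest by -9.04 points (-17.5 to -0.389). That call did not hold for hotspot peaks away from CTCF, where 27 of 165 in the strongest quartile (16.4%) and 24 of 135 in the weakest (17.8%) were found, and its sign turned with the stronger 50% of hotspots (3.59 points, -4.47 to 11.6). At CTCF peaks away from hotspots the lowest score quartile stood apart. In it 111 of 156 peaks were found (71.2%), beside 138 of 156, 141 of 156 and 141 of 157 in the higher quartiles (88.5%, 90.4% and 89.8%). The difference between the outer quartiles was 18.7 points (9.97 to 27.1), and 9.52 points with the higher-scored 50% of CTCF peaks.

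Counted from the hotspots, the change lay in the strongest ones. Of 13808 hotspots, 649 (4.7%) had a wild-type HORMAD1 peak and 192 (1.39%) an Iho1KO peak, with 84 in both and 108 in Iho1KO alone. In the strongest 10% of hotspots by DMC1 value, 565 of 1381 had a wild-type peak (40.9%) and 70 an Iho1KO peak (5.07%). The next 10% fell to 22 and 19 hotspots (1.59% and 1.38%), and in each of the 8 weaker deciles at most 12 hotspots had a wild-type peak and at most 20 an Iho1KO peak. Hotspots with a wild-type peak alone had a median DMC1 value of 3270.5 (quartiles 2267 to 4723). Those with peaks in both lists had a similar median of 2512 but a wider range (quartiles 114 to 7433). Those with an Iho1KO peak alone were weaker than both, with a median of 253 (63 to 868.5). Hotspots with neither had a median of 119.

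Counted from the CTCF peaks, HORMAD1 was present at more of them in the Iho1KO list, and the added share of sites was greatest, in percentage points, at high scores. Of 32676 CTCF peaks, 699 (2.14%) had a wild-type HORMAD1 peak and 2041 (6.25%) an Iho1KO peak. There were 560 in both, 1481 in Iho1KO alone and 139 in the wild type alone. In the highest 10% by score, 359 of 3268 had a wild-type peak (10.99%) and 887 an Iho1KO peak (27.1%). In the lowest 10% these were 12 and 19 of 3267. The share with an Iho1KO peak was above the wild-type share in each of the 10 deciles, and the ratio of the shares ran from 1.58 in the lowest decile to 4.38 in decile 6 and 2.47 in the highest. The median score was 4.10 for CTCF peaks in both lists, 3.47 for those in Iho1KO alone, 2.82 for those in the wild type alone and 1.83 for those without HORMAD1. Sequencing depth and calling thresholds are not known for these lists and the Iho1KO list is longer, so a larger number of sites cannot be told apart from a more sensitive list.

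**Figure D3:**
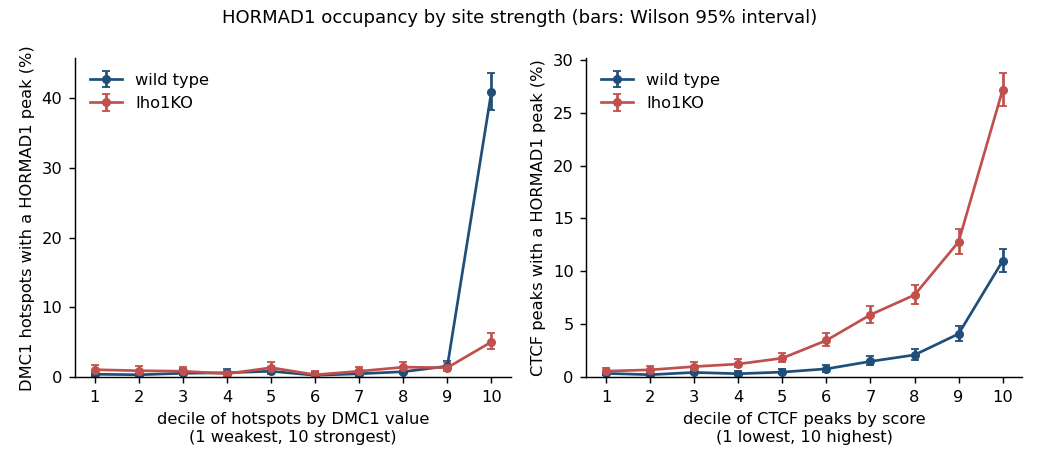
Share of hotspots (left) and CTCF peaks (right) with a HORMAD1 peak (y axes, percent) in deciles of increasing DMC1 value or CTCF score (x axes), for wild type and Iho1KO, with Wilson 95% intervals. The strongest decile of hotspots falls from 40.9% to 5.07%, and the highest decile of CTCF peaks rises from 10.99% to 27.1%.

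The strongest hotspots were in both classes, as the named sites show. Of the wild-type-only peaks, the one at the highest DMC1 value (18961) spanned 6438 bp inside Erbb4, a gene for a receptor tyrosine kinase of neuregulins (chr1:68485638-68492075, mm10; the gene table does not give exons). It had IHO1 and MEI4 in the wild type, MEI4 in Iho1KO, and HORMAD1 in Spo11KO. A second hotspot of near strength (18266.5), 66.4 kb outside the same gene, kept a HORMAD1 peak (chr1:67958374-67965511), but its width was 7138 bp in the wild type and 2098 bp in Iho1KO. The next wild-type-only peak in value lay 0.576 kb from Nedd1, whose product recruits the gamma-tubulin complex (DMC1 18957.5). The others had as nearest genes Cmpk2 (16013.5, 206 kb away), Trim24 (15504, 87.4 kb) and St6gal2 (13846, 152 kb). All 5 had MEI4 in Iho1KO. In the wild type the Trim24 site lacked IHO1 and SYCP3 peaks, and the Nedd1 and St6gal2 sites lacked MEI4 peaks. None of the 5 had HORMAD1 in Prdm9KO or Mei4KO, and neither did any shared or Iho1KO-only hotspot site named in this paragraph. The strongest shared sites lay inside Ankfn1 (DMC1 20822.5, chr11:89607538-89617339), inside Dennd1a (20513.5) and 474 kb outside Lrrc4c (17661.5). Another of them lay inside Nrg1, the gene for a neuregulin ligand (14533). All of these had IHO1, MEI4 and SYCP3 in the wild type, and all but the Dennd1a site had MEI4 in Iho1KO. The 3 strongest hotspots with an Iho1KO-only peak lay inside Dlc1 (11184.5), Celf4, for an RNA-binding protein (9406) and Armc9 (5841). All 3 had SYCP3 in Iho1KO. So did the named shared sites other than that of Lrrc4c, and the wild-type-only sites of Nedd1 and Cmpk2.

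Of the sites named at the highest CTCF scores, those of shared peaks had HORMAD1 in every other knockout. The highest score of any HORMAD1 peak, 37.3, belonged to a wild-type-only peak of 604 bp (chr14:124801581-124802184), looked up after its value was seen, which had SYCP3 in the wild type and Iho1KO and no peak in the other 6 lists. The shared peak at the highest score (31.4) was 1552 bp wide, 10.0 kb from Gm39469 near the distal end of chromosome 9 (chr9:124256317-124257868), and all 8 other lists it was set against (IHO1, MEI4 and SYCP3 of the wild type, MEI4 and SYCP3 of Iho1KO, HORMAD1 of the other 3 knockouts) had a peak there. The next shared sites were near Rab39b on the X (13.5), Scaf8 (13.1), Gng4 (13.0) and Mid1 on the X (11.2). Each had HORMAD1 in Prdm9KO, Spo11KO and Mei4KO and SYCP3 in Iho1KO. Among Iho1KO-only peaks the highest score, 18.7, was at the start of Hjurp, whose product places the centromeric histone CENP-A (chr1:88277149-88278696). None of the 8 lists had a peak there. Those next in score were at the start of Ap5s1 (11.5), 18.8 kb from Mki67, a gene of proliferating cells (9.80), 25.7 kb from Cst3, the gene for cystatin C (9.31), and inside Dnajc17 (8.99). These 4 all had HORMAD1 in Mei4KO, and none had IHO1 in the wild type.

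Most wild-type HORMAD1 peaks at hotspots lay at a MEI4 peak of Iho1KO, 540 of 708 in all. In the wild-type-only class 481 of 609 did (79.0%, 75.6 to 82.0), and in the shared class 59 of 99 (59.6%, 49.7 to 68.7). Counted from the hotspots, MEI4 of Iho1KO was at 473 of 565 with a wild-type HORMAD1 peak alone and 53 of 84 with both. It was at 39 of 108 hotspots with an Iho1KO HORMAD1 peak alone and at 2049 of 13051 with neither. These counts were not separated by DMC1 value. Of the 609 wild-type-only peaks 58 overlapped an SYCP3 peak of Iho1KO (9.52%, 7.44 to 12.1), although 521 had SYCP3 in the wild type (85.6%). The SYCP3 list of Iho1KO came from 1 sample. Over the whole classes, MEI4 of Iho1KO was at 56.8% of wild-type-only and 7.87% of shared peaks (difference -49.0 points, -52.6 to -45.1), beside hotspot shares of 70.5% and 11.6%. For SYCP3 of Iho1KO the order was the other way, 23.4% and 61.6% (38.2 points, 33.8 to 42.4), but among peaks away from hotspots the difference was 5.90 points (-1.01 to 12.9) and not called.

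Within hotspot peaks, SYCP3 in Iho1KO went with HORMAD1 in Iho1KO. Of 113 wild-type HORMAD1 hotspot peaks with an SYCP3 peak in Iho1KO, 55 were found again (48.7%, 39.7 to 57.8), and of 595 without it 44 were (7.39%, 5.55 to 9.78). The difference of 41.3 points (31.9 to 50.6) was between 31.1 and 41.3 under the other settings. Of the hotspot peaks in the strongest quartile that had neither CTCF nor SYCP3 of Iho1KO, 9 of 128 were found (7.03%), and of those in the weakest quartile 8 of 105 (7.62%). For MEI4 of Iho1KO the difference was the other way, with 59 of 540 peaks found (10.9%) where it was present and 40 of 168 (23.8%) where it was not (-12.9 points, -20.3 to -6.38). It was -24.6 in the wider 50% of peaks and -18.6 with the 50% overlap, both called, and -3.61 with 1 kb windows and -2.48 with the stronger hotspots, neither called. These 2 comparisons were added after the values had been seen.

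Few of the Iho1KO-only peaks lay at IHO1 or SYCP3 peaks of the wild type or at MEI4 peaks of Iho1KO. Wild-type IHO1 was at 197 of 2295 (8.58%) beside 48.6% of the shared Iho1KO peaks (difference -40.0 points, -43.5 to -36.5). Wild-type SYCP3 was at 187 (8.15%), and MEI4 of Iho1KO at 48 (2.09%; -5.29 points, -7.30 to -3.58). Hotspots were at 4.66% of the Iho1KO-only and 10.2% of the shared Iho1KO peaks (-5.53 points, -7.87 to -3.45). How far this took part in the MEI4 difference was not tested. The shared class was defined by a wild-type HORMAD1 peak and the Iho1KO-only class by its absence. Lower overlap with the wild-type IHO1 and SYCP3 lists can come from that definition, and how far it does was not tested. SYCP3 of Iho1KO was at 452 (19.7%) beside 61.2% of the shared peaks (-41.5 points, -45.1 to -37.8). Restricted to CTCF peaks away from hotspots, these SYCP3 shares were 228 of 1458 (15.6%) and 325 of 543 (59.9%), a difference of -44.2 points (-48.6 to -39.6). The Iho1KO-only peaks were also narrower, with a median width of 1489 bp (quartiles 1063.5 to 2196.5) against 1926.5 bp for the shared Iho1KO peaks. How far width took part in these shares was not tested. In the wider 50% of each list, where sharing was called anew, the last difference was -34.6 points. Peaks whose wild-type partner was cut counted there as Iho1KO only, and 263 of 721 of that class had SYCP3. That setting therefore cannot separate width from class.

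Many of these sites had HORMAD1 in Mei4KO too. Of the Iho1KO-only peaks, 1310 (57.1%, 55.0 to 59.1) overlapped a HORMAD1 peak of Mei4KO, close to 56.1% of the shared peaks (0.992 points, -2.88 to 4.90). Spo11KO had 1007 of them (43.9%) beside 85.2% of the shared peaks (-41.4 points, -44.4 to -38.1), and Prdm9KO 268 (11.7%) beside 60.7% (-49.0 points, -52.4 to -45.4). At CTCF peaks away from hotspots the Mei4KO shares were 65.0% and 63.7% (1.30 points, -3.35 to 6.08) and the Spo11KO shares 47.3% and 88.4% (-41.1 points, -44.6 to -37.1). In the wider 50% of each list, with sharing called anew, the Spo11KO and Prdm9KO differences over all sites were -21.1 and -23.7 points, both called. The Iho1KO-only class of that setting took in peaks shared in the full lists, and its Prdm9KO count was 349 of 1299. These smaller differences therefore do not isolate width. None of the 3 other HORMAD1 knockout lists held 579 Iho1KO-only peaks (25.2%), and all 3 held 134 (5.84%), while 44 (5.15%) and 279 (32.7%) of the shared peaks were in none and all. The lists differ in length, 1009 peaks in Prdm9KO, 2897 in Spo11KO and 5275 in Mei4KO, and the Mei4KO list covers 18181964 bp against 7011859 bp in Iho1KO, so the orders of these shares between knockouts were not read as orders of likeness. Of the 625 wild-type peaks at CTCF away from hotspots, 85.0% were found in Iho1KO, 84.5% in Spo11KO, 64.0% in Prdm9KO and 61.1% in Mei4KO, all against the same wild-type list. Of the 708 wild-type hotspot peaks, against that list too, 13.98% were found in Iho1KO, 5.08% in Prdm9KO, 6.36% in Mei4KO and 49.9% in Spo11KO, so a low share at hotspots was not seen in Iho1KO alone.

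**Figure D4:**
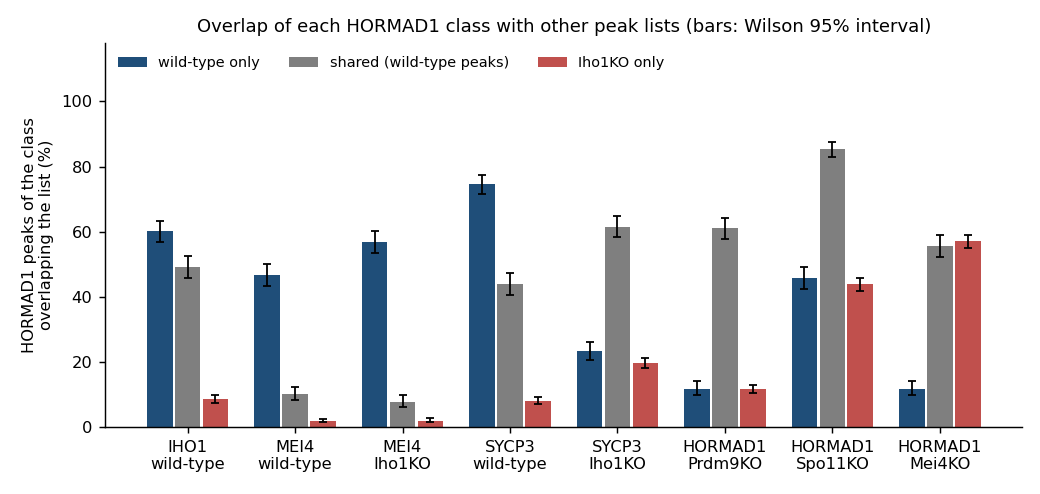
Share of wild-type-only, shared (wild-type peaks) and Iho1KO-only HORMAD1 peaks (y axis, percent, Wilson 95% intervals) that overlap each of 8 other peak lists (x axis). MEI4 of Iho1KO lies at 56.8% of wild-type-only peaks and 2.09% of Iho1KO-only peaks, and HORMAD1 of Mei4KO at 11.9% of wild-type-only and 57.1% of Iho1KO-only peaks.

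Shared peaks at hotspots were narrower in Iho1KO, and shared peaks elsewhere were close to their wild-type width. In 823 pairs a wild-type peak and an Iho1KO peak overlapped only each other. For the 91 pairs at hotspots the median width was 5662 bp in the wild type and 2129 bp in Iho1KO, and 81 were narrower in Iho1KO (89.0%, 80.9 to 93.9). For the 732 other pairs the medians were 2009.5 and 1884 bp, and 404 were narrower (55.2%, 51.6 to 58.8). The difference in the share of narrower peaks was 33.8 points (25.0 to 39.9). Only 87 shared Iho1KO peaks themselves overlapped a hotspot, so some of the 91 pairs were counted there by their wild-type peak. A wider peak can meet a hotspot more readily, and how far this took part was not tested. Depth, which bears on called widths, is unknown for both lists.

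The X chromosome had few of the peaks seen only in Iho1KO. On it lay 6 of 2295 Iho1KO-only peaks (0.261%, 0.120 to 0.569) but 34 of the 854 shared Iho1KO peaks (3.98%, 2.86 to 5.51) and 39 of the 864 wild-type-only peaks (4.51%). Of CTCF peaks without wild-type HORMAD1, 5 of 847 on the X had an Iho1KO peak (0.590%, 0.252 to 1.37), against 1475 of 31127 on autosomes (4.74%, 4.51 to 4.98). The difference was -4.15 points (-4.56 to -3.33). The autosomes ranged from 3.22% on chromosome 15 to 5.72% on chromosome 19. The median CTCF score was 1.96 on the X and 1.92 on autosomes. In the upper 50% of scores the shares were 1.17% and 8.66% (-7.49 points, -8.30 to -5.89), and in the highest 10%, with 2 of 30 X peaks, the interval of the difference included 0. CTCF peaks that had HORMAD1 in the wild type were found on the X as on autosomes, 28 of 34 (82.4%) and 527 of 658 (80.1%; 2.26 points, -13.9 to 12.1). With the same wild-type list, CTCF peaks without wild-type HORMAD1 had HORMAD1 in Mei4KO at 2.48% on the X and 9.63% on autosomes. In Spo11KO these shares were 0.236% and 3.18%. Sites were counted whatever the Iho1KO list held there, so the sets of the knockouts can overlap. The X comparison was chosen after the values had been seen. The read depth on the X, most of which male cells carry in a lone copy, cannot be told from peak lists. Within its distal 2 Mb lay 1 of the 6 Iho1KO-only, 6 of the 34 shared Iho1KO and 8 of the 39 wild-type-only X peaks, which were not set apart.

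**Figure D5:**
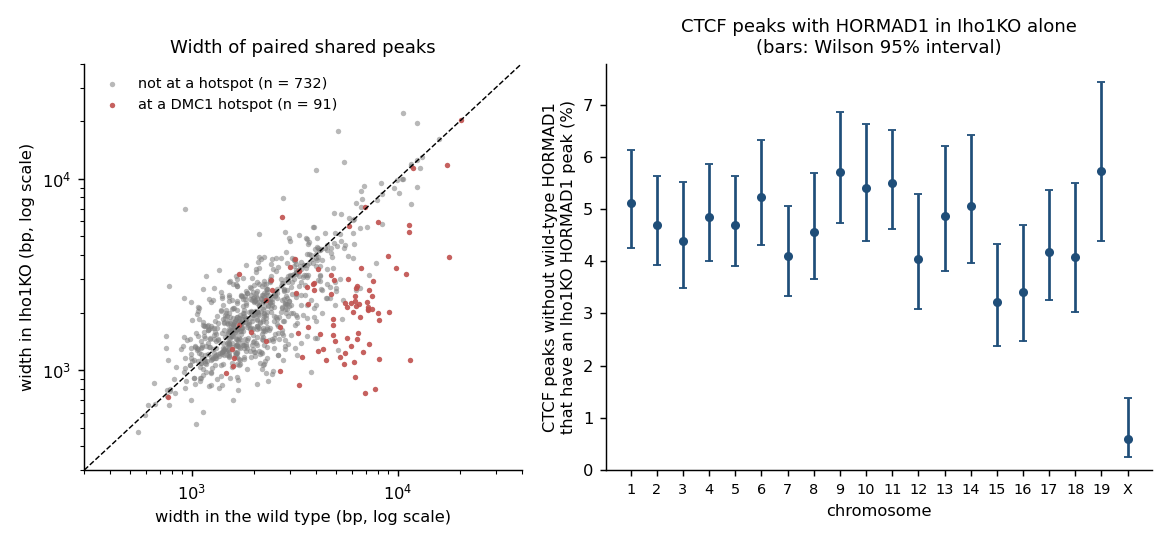
Left, width of each paired shared peak in Iho1KO (y axis) against the wild type (x axis), in bp on log scales, with hotspot pairs in red and the line of equal width dashed; 81 of 91 hotspot pairs lie below the line. Right, percent of CTCF peaks without wild-type HORMAD1 that had an Iho1KO HORMAD1 peak (y axis, Wilson 95% intervals) by chromosome (x axis), from 0.590% on the X to 5.72% on chromosome 19; the Y, with 1 of 3 CTCF peaks, is not drawn.

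Gene ends were at 17.4 to 19.1% of the peaks of each class, and no difference between whole classes was called. Within 1 kb of either end of a protein-coding gene lay 17.4% of wild-type-only peaks, 18.2% of shared wild-type peaks (difference 0.853 points, -2.77 to 4.48) and 19.1% of Iho1KO-only peaks, beside 18.4% of shared Iho1KO peaks (0.701 points, -2.45 to 3.66). Away from hotspots, wild-type-only peaks were at gene ends more often, 83 of 255 (32.5%) against 131 of 752 shared peaks (17.4%), a difference of -15.1 points (-21.6 to -8.96) for shared minus wild-type only. In Iho1KO-only peaks at neither hotspot nor CTCF the share was 229 of 730 (31.4%), and in those at CTCF away from hotspots 175 of 1458 (12.0%).

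Some genes that act in meiosis had HORMAD1 at an end. An Iho1KO peak lay at an end of 763 of 21887 protein-coding genes (3.49%), and a wild-type peak at 420 (1.92%). All members of a list of 40 meiosis genes matched the gene table. Members with an Iho1KO-only peak at an end included Zcwpw1, a reader of the histone marks that PRDM9 writes. They also included Meioc, which acts in meiotic entry and prophase, and Bhmg1, the table's symbol for Meiosin, a partner of STRA8 at meiotic entry. The only list member with a wild-type peak was Gm960, the table's symbol for Top6bl, the partner subunit of SPO11, at a shared peak. Of 39 Hox genes, 4 had an Iho1KO peak, a shared peak at Hoxa9 and Iho1KO-only peaks at Hoxa10, Hoxb8 and Hoxb9, which are neighbours in their clusters. The Hox list thus had 10.3% of its members at an Iho1KO peak, beside 3.49% of all genes, and no test of the lists was made.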

How the data were processed

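Peak lists of HORMAD1, IHO1, MEI4, SYCP3, CTCF and DMC1 from synchronised mouse testes were used as the authors deposited them. Bowtie2 and MACS2 and the build mm10 are named in the submitters' processing notes, without versions or settings. HORMAD1 processed data had the signal of Hormad1KO mice subtracted by the authors, and likewise for the other proteins, as the design text of the series states. Whether replicates were pooled is not given in the sources used here, and depth is unknown. The HORMAD1 lists hold positions alone. The CTCF score per peak and the DMC1 signal value per hotspot are the authors' deposited values, of unnamed scale, and were used only to rank sites within their list.

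Overlap meant at least 1 bp in common. Where a peak met several sites, the highest value was taken. Shares have Wilson and differences Newcombe 95% intervals, computed in Python 3.11.15 with NumPy 2.4.6, SciPy 1.17.1 and pandas 2.3.3. A difference was called where its interval excluded 0. Of 22 differences planned, 16 were called, with no adjustment for their number. The code was tested on simulated intervals. Gene ends and names come from the RefSeq gene table of GRCm38.p6, a patch of the same build as mm10. Alternatives were a 50% overlap, 1 kb centre windows, autosomes only, the wider 50% of each HORMAD1 list, and the 50% of hotspots or CTCF peaks with higher values. Classes were called anew in each, so in the wider 50% a peak shared in the full lists could lose its partner. Named sites are the 5 (3 for hotspots of Iho1KO-only peaks) with the highest DMC1 value or CTCF score per class. The members, lists and comparisons were chosen with earlier results of these data known. The count for 1 gene list is not reported here.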

Additional observations from a re-analysis of the deposited data

How the results depend on the processing

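No paired analysis was possible because there was 1 peak list per group, and for the same reason no replicate could be left out. Of 178 recomputed differences, 163 kept their side of the threshold. Of these 157 kept their direction, and 6, of 6 different results, changed sign with intervals that included 0 before and after. Of 51 recomputed medians 42 stayed within the 95% interval of the reported one. The causes of the changes below were not tested, apart from fewer peaks in every restricted set.

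The fall from the weakest to the strongest DMC1 quartile in the share of hotspot peaks found again was -6.83 points with the 50% overlap, -1.43 with 1 kb windows, -7.10 in the wider peaks and -1.41 away from CTCF, none of them called, and turned to 3.59 with the stronger hotspots. In the wider 50% of peaks, where classes were called anew, the IHO1 difference between shared and wild-type-only peaks was -5.33 (not called). Gene ends became more frequent there in shared peaks, by 12.6 points over wild-type-only peaks, while Iho1KO-only minus shared turned to -6.78 points. Among peaks away from hotspots, an alternative added after seeing the data, the IHO1 difference was -1.03 and the SYCP3 difference 5.90, neither called, gene ends turned to -15.1, and Iho1KO-only minus shared at CTCF became called at -4.16. It was also called with the higher-scored CTCF peaks (-4.57).

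Medians moved with the wider peaks to 5201.5 bp (wild-type only), 4100 bp (shared) and 2287 bp (Iho1KO only), as the choice by width makes them, with CTCF scores of 3.90 (shared) and 3.59 (Iho1KO only). The stronger hotspots gave DMC1 medians of 3695 (shared) and 740.5 (Iho1KO only), and the higher-scored CTCF peaks gave scores of 3.43 (wild-type only) and 3.65 (Iho1KO only). The X difference was -1.87 points in the wider peaks and still called.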
